A study of Mus musculus with 15 samples.

Results

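The genes described here are those of the cytosolic ribosomal proteins, the protein subunits of the ribosomes that translate nuclear-encoded mRNA. They were chosen by name, as rows named Rpl, Rps or Rplp with a number and at most 1 trailing letter, with at least 1 TPM in at least 3 of 15 libraries. TPM is the usual transcript abundance unit, relative to all transcripts of a library and corrected for transcript length. The name fitted 81 rows, and 77 of them passed the filter, out of 13905 genes that passed it and 24493 in the table. They comprised 46 genes of the large subunit and 31 of the small subunit. The name alone decides membership, so some paralogs fell outside it and are described separately.

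The libraries were RNA-seq of cells sorted from mouse liver, in 5 groups of 3: untreated hepatocytes, untreated biliary cells, DDC hepatocytes, DDC reprogrammed cells and DDC biliary cells. DDC is a chow additive that injures hepatocytes and the bile ducts. All mice had, according to the labels, been given AAV-TBG-Cre when 4 weeks old. The virus carries Cre recombinase under TBG, a hepatocyte promoter, to mark cells. DDC feeding began when the mice were 5 weeks old and lasted 4 weeks, and untreated mice received none. The series title calls the reprogrammed cells reprogrammed hepatocytes. The strain, the reporter allele, the sorting markers and the number of mice behind a library are not given in the sources used here. Nothing states that libraries of a group came from separate mice, so every p-value reflects spread among libraries that may be technical.

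Each ribosome holds 1 copy of nearly every ribosomal protein, and cells make these proteins in matched amounts. Their mRNAs are abundant, and many begin with a C followed by a run of pyrimidines, the terminal oligopyrimidine or TOP motif. Through this motif the kinase complex mTORC1 and the binding protein LARP1 control how much of the mRNA is translated. Some ribosomal proteins also act outside the ribosome, such as Rpl5 and Rpl11, which bind the p53 inhibitor Mdm2.

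RefSeq promoter windows for GRCm38.p6, from 250 bases before to 50 after an annotated start, were found for 56 of the 77 genes, with 67 windows in all. In 13 of the 67 windows (19.4%) the annotated first base was a C followed by at least 4 further C or T, against 2.5% of all 32851 windows. The start is an annotation and was not measured in these cells. A C followed by C or T, as a run of at least 8 bases on the strand of the gene, was also searched for. Such a run began within 25 bases of the annotated start in 55.2% of the windows of these genes and 17.0% of all windows. Of words searched on both strands of the 300 bases, CCGGAAG, the core of ETS-family sites, was in 35.8% against 8.9% of windows, and AAGATGGC, a YY1 word, was in 10.4% against 2.7%. The GC box GGGCGG was in 59.7% against 35.7%, and TATAAA, the TATA box word, was in 9.0% against 13.6%. CCGGAAG ends in the AAG with which AAGATGGC begins, so these 2 words can share letters. A match describes the sequence only.

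The stretches below run from 10 bases before the annotated start to 19 after it, 5′ to 3′ on the strand of the gene, with capitals for the run of pyrimidines from the annotated start where it passed that rule. Rpl38, Rpl41 and Rps18 are shown because they were among the 5 most abundant of the genes, Rps6 because its protein is the substrate of S6 kinase, and Rpl28 as a further clear run. The last 6 belong to genes whose levels departed from the rest of the family, some with the run and some without.
Rpl38 (chr11:114668570-114668599, +): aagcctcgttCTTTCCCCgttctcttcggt
Rpl41 (chr10:128549149-128549178, -): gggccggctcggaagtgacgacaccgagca
Rps18 (chr17:33955646-33955675, -): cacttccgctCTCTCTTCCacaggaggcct
Rps6 (chr4:86857348-86857377, -): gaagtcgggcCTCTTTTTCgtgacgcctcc
Rpl28 (chr7:4792955-4792984, +): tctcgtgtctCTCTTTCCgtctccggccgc
Rps27l (chr9:66946076-66946105, +): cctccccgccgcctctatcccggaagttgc
Rps2 (chr17:24720053-24720082, +): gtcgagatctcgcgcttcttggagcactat
Rpl5 (chr5:107900518-107900547, +): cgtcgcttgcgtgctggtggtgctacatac
Rpl12 (chr2:32961702-32961731, +): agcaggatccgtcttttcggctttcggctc
Rpl35a (chr16:33056472-33056501, +): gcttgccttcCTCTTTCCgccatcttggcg
Rps15a (chr7:118116128-118116157, -): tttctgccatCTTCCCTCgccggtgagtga
The run in capitals is 8 bases in Rpl38, Rpl28, Rpl35a and Rps15a and 9 bases in Rps18 and Rps6. The Rpl35a stretch is 1 of 3 annotated starts, and the other 2 lack the run. The Rps27l stretch is 1 of 2 annotated starts of that gene and holds the word CCGGAAG. No capitals means only that the run does not begin at that annotated base.

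Before the results, 3 facts on the libraries bear on all of them. Sequencing depth cannot be read from TPM, and no counting error can be given. The row Mir6236, a microRNA gene that overlaps ribosomal RNA sequence, reached 152700 TPM in library 1 of the DDC hepatocytes and 66080 to 99720 in the other 2. It was at 71630 to 86900 in DDC biliary cells, 25690 to 33080 in reprogrammed cells and 19520 to 40080 in the untreated groups. Library 1 of the DDC hepatocytes also stood apart in the ribosomal protein genes, 75 of which lay below the group mean. Summed levels of 10 hepatocyte markers were 196000 to 222000 scaled TPM in untreated hepatocytes, 37500 to 49900 in untreated biliary cells, 94800 to 180000 in DDC hepatocytes, 30800 to 89100 in reprogrammed cells, with 15500 to 35200 in DDC biliary cells. Summed levels of 10 biliary markers were 18.3 to 24.9, 10400 to 12100, 281 to 595, 4420 to 10600 and 7880 to 12900 in the same order. In that order leukocyte markers summed to 14.7 to 27.9, 68.6 to 97.3, 41 to 64.5, 81.1 to 97 and 89.7 to 179. Stellate cell and fibroblast markers summed to 1.34 to 5.04, 19.8 to 30.8, 12.5 to 13.1, 18.8 to 61.7 and 14.8 to 82.5, and endothelial markers to at most 24 in any library. Red cell markers were highest in untreated hepatocytes, with sums of 114 to 137, 19 to 33.9, 15.6 to 26, 10.2 to 16.5 and 13.2 to 17.9. These markers move with cell type and treatment, and their part in the results was not tested.

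As a family, the 77 genes took up a larger share of the transcripts of biliary and reprogrammed cells than of hepatocytes. Their share was also larger in DDC hepatocytes than in untreated ones. Rows of near-identical copies, described below, are left out of these shares, and shares with copies added were not computed. The 77 genes made up 3.52%, 3.50% and 4.10% of the deposited TPM in untreated hepatocytes and 4.70%, 5.70% and 5.92% in DDC hepatocytes. They made up 6.27%, 7.03% and 7.11% in untreated biliary cells, 7.75%, 7.32% and 7.68% in reprogrammed cells, with 7.59%, 7.66% and 7.76% in DDC biliary cells. Untreated hepatocytes had the lowest share, then DDC hepatocytes, then untreated biliary cells, with no overlap between these groups. Reprogrammed and DDC biliary cells were highest and overlapped each other. An exact permutation test of 3 against 3 libraries cannot go below p = 0.1, so none is given. Without Mir6236 and the ribosomal RNA row Rn45s, a choice made after seeing the data, the mean shares were 3.84% ± 0.35, 6.09% ± 0.45, 6.96% ± 0.47, 7.82% ± 0.27 and 8.34% ± 0.13 (SD, n = 3) in that order. Without these rows reprogrammed cells, at 7.51% to 8.03%, and DDC biliary cells, at 8.20% to 8.42%, did not overlap. In bulk samples, fewer cells of a type and less RNA per cell cannot be told apart.

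**Figure D1:**
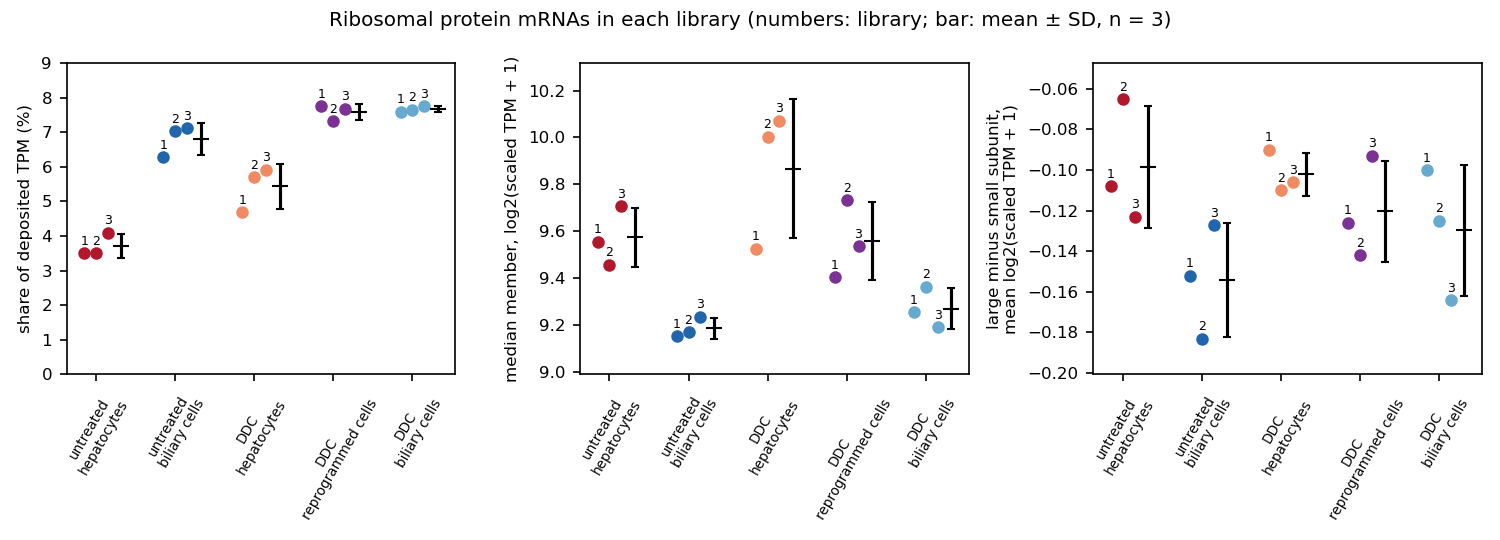
Share of deposited TPM in the 77 genes (left, percent), the median gene on the log2(scaled TPM + 1) scale (middle) and the mean of large-subunit minus small-subunit genes on that scale (right), for each of the 15 libraries by group, numbered by library, with the mean ± SD of 3 beside them. The share is lowest in untreated hepatocytes (3.50% to 4.10%), while the scaled median is lowest in untreated biliary cells (9.15 to 9.24).

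The order of cell types depended on the measure, and other scalings are given below. Biliary cells were above hepatocytes in the share of all transcripts and below them on values scaled by a median ratio to other genes. For the latter, the values of a library were set against 1 scale factor, its median ratio of 11924 genes to their geometric mean, and levels from here on are in scaled TPM unless said otherwise. The scale factors were 0.558 to 0.608 in untreated hepatocytes and 1.33 to 1.48 in untreated biliary cells. Biliary libraries held more genes above 1 TPM, 12850 to 13097 against 10231 to 10432. On the scaled values the median ribosomal protein gene was 763 ± 67.1 in untreated hepatocytes, 582 ± 17.5 in untreated biliary cells, 946 ± 183 in DDC hepatocytes, 756 ± 87.7 in reprogrammed cells, with 617 ± 38.0 in DDC biliary cells (SD, n = 3). The scale factor and the number of genes above 1 TPM move with the cell type here, and their part in these differences was not tested.

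Groups were compared with limma on log2(scaled TPM + 1), a scale that understates changes of genes with low values, and a gene was called where the Benjamini-Hochberg adjusted p was under 0.05. In untreated biliary cells against untreated hepatocytes, 31 of the 77 genes were called lower and 1 higher, where 30% of all genes tested were called lower and 36.9% higher. The median of the 77 log2 differences was -0.31 and that of all genes 0.12. In TPM as deposited the same comparison gave 72 higher and 1 lower, against 72.4% and 7.15% of all genes, with a median of 0.93 for the family and 1.11 for all genes. Quantile normalization gave 69 higher and 2 lower, against 26.7% and 37.4%, with a median of 0.81. The direction of the family between these cell types therefore flips with the scaling. Without library 3 of the untreated hepatocytes, 19 genes were called lower on scaled values, and without their library 2 the count of higher genes was 2. Fits with fewer libraries, fewer groups, a block or other filters, here and below, have no share of all genes to set beside their counts.

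The comparison of the same cell types under DDC gave the same picture. On scaled values 62 of the 77 genes were called lower in DDC biliary cells than in DDC hepatocytes and 1 higher, against 28.8% and 36.6% of all genes, with a median of -0.55 for the family and 0.14 for all genes. In TPM as deposited 64 were higher and 1 lower, against 72.4% and 8.62% of all genes, with medians of 0.55 and 1.06, so the direction flips again. Quantile normalization gave 67 higher and 1 lower, against 27.7% and 35.4%. With only the 2 groups in the fit, 23 were called lower on scaled values. The 1 higher gene, Rps4l, was lost in that fit and without DDC biliary library 3 or DDC hepatocyte library 1.

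Reprogrammed cells against DDC hepatocytes gave 6 genes lower and 1 higher on scaled values, against 20.6% and 27% of all genes, with medians of -0.27 and 0.06. In TPM as deposited 69 were higher and 0 lower, against 64.4% and 1.8%, with medians of 0.52 for the family and 0.71 for all genes. Quantile normalization gave 61 higher and 0 lower, against 18.3% and 24.4%, with medians of 0.42 and -0.13, so this direction flips as well. The family median lay below that of all genes on scaled and deposited values and above it after quantile normalization. The 6 lower genes on scaled values were Rps27l, Rpl41, Rps2, Rpl7a, Rpl27a and Rpl11, named because the count is small. The count of 6 depended on single libraries: it was 58 without DDC hepatocyte library 1, 3 without library 2 and 1 without library 3, and 1, 13 and 2 without reprogrammed libraries 1, 2 and 3. The 1 higher gene, Rps4l, was lost without DDC hepatocyte library 1 or 2 or reprogrammed library 3. With the library number as a block within treatment, which pairs these libraries by the data, 17 were lower. Whether calls among all genes rose likewise with the block or without a library was not examined. Reprogrammed cells share the DDC hepatocyte libraries as controls with the preceding comparison.

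Between reprogrammed and DDC biliary cells 75 of the 77 genes were higher in reprogrammed cells on scaled values, with few calls. On scaled values 1 gene, Rps27l, was higher in reprogrammed cells and 0 were lower by limma, against 8.31% and 6.46% of all genes, and at an unadjusted p under 0.05 the counts were 11 and 0. The medians were 0.28 for the family and -0.06 for all genes. In TPM as deposited 0 were called in either direction, against 4.65% higher and 21.6% lower. The family median was then -0.03, so its sign flips, and the median of all genes was -0.34. Quantile normalization gave 0 higher and 1 lower, against 8.39% and 7.39%, with medians of -0.16 and -0.03. The family median lay above that of all genes on scaled and deposited values and below it after quantile normalization. With the block, 3 were higher on scaled values. The call of Rps27l was lost without DDC biliary library 3 or without reprogrammed library 2 or 3, and without DDC hepatocyte library 1 the count was 4.

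**Figure D2:**
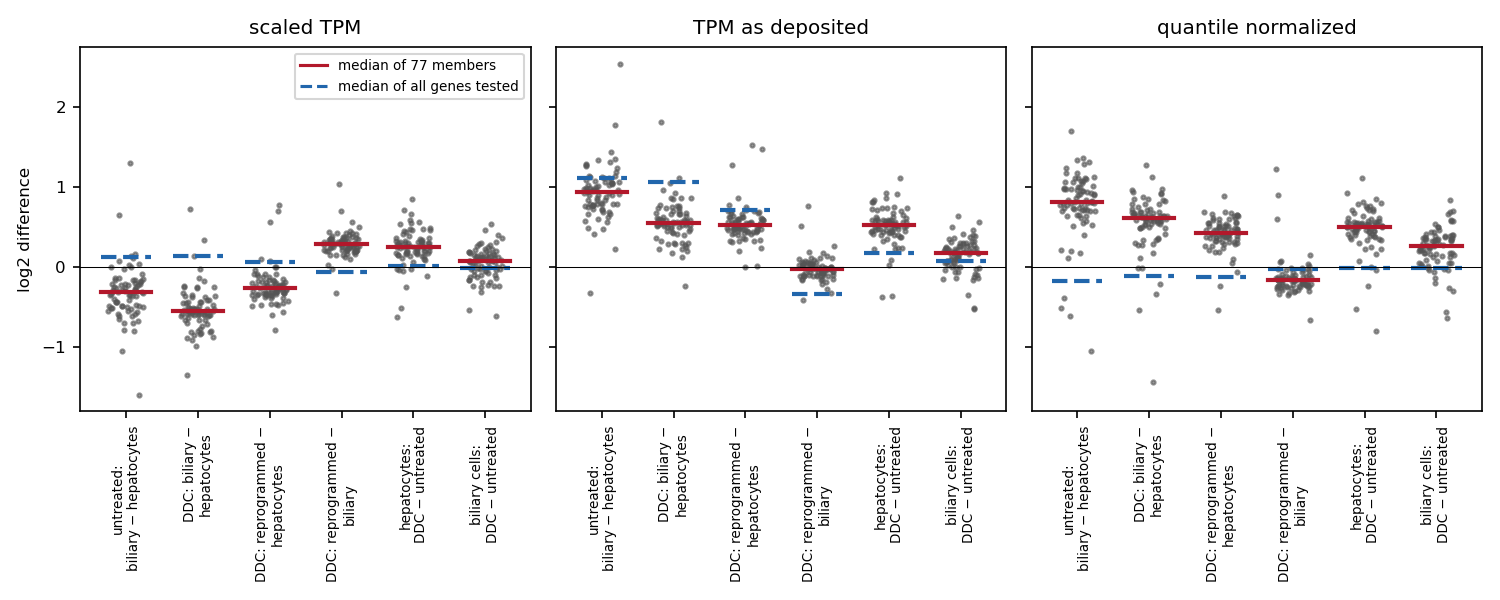
Log2 differences of the 77 genes (grey points) in 6 comparisons under 3 treatments of the library scale, with the median of the 77 (solid line) and of all genes tested (dashed line). The family median of biliary minus hepatocytes is -0.31 on scaled TPM and 0.93 on TPM as deposited, while that of DDC minus untreated hepatocytes is 0.25, 0.52 and 0.50.

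In hepatocytes under DDC, the median of the 77 log2 differences was above 0 with each of the 3 treatments of the scale. On scaled values 69 genes were above 0 and 8 below, few passed the test, and the median gene of DDC hepatocyte library 1 lay within the range of the untreated libraries. The median log2 difference was 0.25 on scaled values, 0.52 in TPM as deposited and 0.50 with quantile normalization, where the medians of all genes were 0.01, 0.17 and -0.02. Calls were 8 higher and 0 lower on scaled values (14.7% and 13.3% of all genes), 67 higher and 0 lower as deposited (19.8% and 5.06%), and 64 higher and 0 lower after quantile normalization (11.5% and 10.4%). The 8 were Rpl12, Rps12, Rpl3, Rpl13, Rps20, Rpl41, Rplp0 and Rpl35, with log2 differences from 0.41 in Rps20 to 0.84 in Rpl12 (adjusted p = 0.0127, limma). This count of 8 rested on single libraries. It was 43 without DDC hepatocyte library 1, 0 without library 2 and 1 without library 3, and 0 and 1 without untreated hepatocyte library 1 and 2. Leaving out a library of another group moved it to 3 (any untreated biliary library or reprogrammed library 3) or 5 (DDC biliary library 1 or 2).

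In biliary cells under DDC the counts were as follows. On scaled values 0 genes were called in either direction by limma, against 13.4% higher and 12.7% lower of all genes, with 2 higher and 1 lower at an unadjusted p under 0.05 and a family median of 0.07. As deposited 6 were higher and 0 lower (15.8% and 9.26% of all genes), and after quantile normalization 32 and 0 (17.2% and 16.4%), with medians of 0.17 and 0.26. Without DDC hepatocyte library 1 the counts on scaled values were 2 and 1, and without library 3 they were 1 and 1. The difference between the DDC responses was tested itself: biliary minus hepatocyte responses gave 0 calls on scaled values by limma (5.59% higher and 7.21% lower of all genes), with 0 higher and 3 lower at an unadjusted p under 0.05. As deposited 0 were higher and 6 lower, against 3.78% and 6.49% of all genes, and after quantile normalization 0 and 5, against 5.95% and 5.72%. Its family median was -0.20, -0.36 and -0.23 in the 3 treatments. Without DDC hepatocyte library 1, 5 were lower on scaled values.

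Libraries of a group often differed in the same direction across the family on scaled values, where 1 scale factor sets the level of a whole library. In DDC hepatocytes 75 genes lay below the group mean in library 1 and 71 and 74 lay above it in libraries 2 and 3. In reprogrammed cells 73 lay below in library 1 and 72 above in library 2. In untreated hepatocytes 73 lay below in library 2 and 73 above in library 3. Other libraries were near even, with 38 above and 39 below in DDC biliary library 1, 34 and 42 in reprogrammed library 3 and 34 and 43 in untreated biliary library 2. The median deviation was at most 0.33 in size on the log2 scale. The spread of log2 differences between genes was also narrow, with an SD of 0.16 to 0.35 over the 77 against 0.53 to 1.5 over all genes, which include many with low levels.

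Within the family, levels spanned a wide range. The mean over all 15 libraries had a median of 740 scaled TPM, with quartiles of 461 and 1053, and 69 genes were at or above 100. The 5 highest were Rpl38 (3099), Rplp1 (2421), Rpl41 (1985), Rps18 (1813) and Rps14 (1462). Rpl38 codes for a large-subunit protein, Rplp1 for an acidic protein of the stalk that recruits elongation factors, and Rpl41 for the shortest ribosomal protein. Rpl38 was at 3299, 2671 and 3418 in untreated hepatocytes, 2436, 2452 and 2637 in untreated biliary cells, 3391, 3711 and 4668 in DDC hepatocytes, 3138, 3393 and 3269 in reprogrammed cells, with 2789, 2771 and 2437 in DDC biliary cells. Its DDC hepatocyte libraries were the highest on average, and those of reprogrammed cells lay within the range of the 2 hepatocyte groups. The median was 718 scaled TPM in large-subunit genes and 802 in small-subunit genes. Large-subunit minus small-subunit mean log2 levels ran from -0.18 to -0.07 over the libraries and overlapped between all groups except that untreated biliary libraries, at -0.18 to -0.13, lay below those of both hepatocyte groups, at -0.12 to -0.07. The nearest libraries were at -0.127 (untreated biliary library 3) and -0.123 (untreated hepatocyte library 3). These means include genes, such as Rpl26 and Rps27, whose level lay almost wholly in rows of near-identical copies, described below. The sign and the separation were not tested with copies added.

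**Figure D3:**
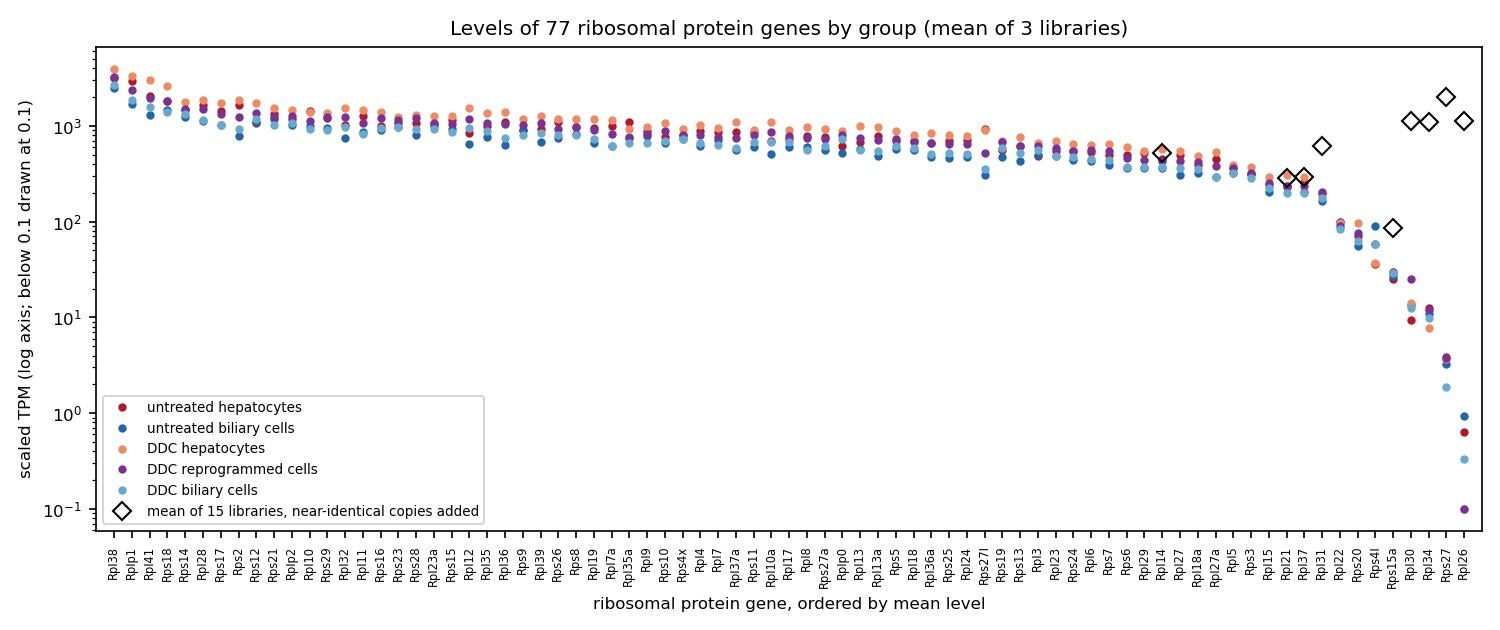
Mean scaled TPM of 3 libraries in each of the 5 groups (points, log axis) for each of the 77 genes, ordered by mean level, with open diamonds for the mean of 15 libraries once the rows of near-identical copies were added. The quartiles are 461 and 1053, and the lowest, Rpl26, Rps27, Rpl34 and Rpl30, lie at or above 1000 with their copies.

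The 5 lowest genes were Rpl26, Rps27, Rpl34, Rpl30 and Rps15a, and their values cannot be read alone. Their coding sequences were nearly identical to those of other rows of the table, pseudogenes or retrogenes, found with at least 95% identity over at least 80% of the coding sequence. Such rows existed for 15 of the 77 genes, and in 6 of them more than 50% of the summed level lay in the copy rows. Rps27 stood at 3.29 scaled TPM on average, and at 2000 with Rps27rt, whose coding sequence was 100% identical. Rpl26 stood at 0.382 and at 1110 with Gm15772, Rpl34 at 10.6 and at 1090 with Rpl34-ps1, Rpl30 at 15 and at 1110 with Gm12191. Rps15a rose from 28.1 to 85.6 and Rpl31 from 187 to 618. How reads were shared between such rows cannot be seen in the table, so the values of these 6 genes are uncertain. The search skipped rows among the 77 themselves, so no member was checked as a copy of another member. The filter left out Rpl3l, Rpl10l, Rpl39l and Rpl32l, with at most 1.54 TPM in any library, in Rpl32l, while the lowest gene that passed, Rpl26, reached 4.04 TPM.

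Beyond the pseudocount, the 1 added to TPM before taking logs, departures from the family do not depend on the library scale. Each library was set against its own median of the 77 genes. In untreated biliary cells against untreated hepatocytes, 14 genes were higher and 8 lower than the family (limma, 37% and 21.5% of all genes). Under DDC the counts were 12 and 5 (49.5% and 14.9%), in reprogrammed cells against DDC hepatocytes 2 and 1 (26.1% and 9.18%), and in reprogrammed against DDC biliary cells 0 and 0 (3.55% and 12.3%), with 0 and 1 at an unadjusted p under 0.05. DDC against untreated cells gave 2 and 3 in hepatocytes (4.93% and 27.5%) and 2 and 5 in biliary cells (9.11% and 12.6%). With the block, reprogrammed cells against DDC hepatocytes gave 4 higher and 3 lower. Of the 54 calls in all, 20 held under each of the 20 alternatives run on them. A pseudocount of 5 alone lost 9 of the 54. Of the 22 genes that departed between untreated cell types, 11 also departed in the same direction under DDC, or 50% of the first list and 64.7% of the 17 in the second. The overlap among all genes was not counted, so these shares cannot be read as a trait of the family. Single libraries moved some counts by more than 1.5 times. Without untreated biliary library 2 or untreated hepatocyte library 1, 9 were higher between untreated cell types. Under DDC, 3 were lower without DDC biliary library 1 or 3 or DDC hepatocyte library 3, and 8 without DDC hepatocyte library 1. In reprogrammed cells against DDC hepatocytes, 1 was higher without reprogrammed library 1, 4 were higher without library 2, and 2 were lower without DDC hepatocyte library 2.

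Rps27l, which codes for a paralog of the small-subunit protein Rps27 and is a known p53 target, departed furthest downward. It stood at 926, 868 and 977 scaled TPM in untreated hepatocytes and at 306, 288 and 319 in untreated biliary cells. In DDC hepatocytes it stood at 847, 792 and 1053, in reprogrammed cells at 441, 572 and 544 and in DDC biliary cells at 352, 391 and 307. All hepatocyte libraries lay above all reprogrammed libraries, and these lay above all biliary libraries. Against the family the log2 difference was -1.21 ± 0.13 (SE) between untreated cell types (adjusted p = 4.43e-06, limma) and -0.76 ± 0.13 under DDC (adjusted p = 0.000232). In reprogrammed cells against DDC hepatocytes it was -0.48 (adjusted p = 0.0126), a call lost with only those groups in the fit (adjusted p = 0.127). As deposited, Rps27l was 539 ± 29.6 TPM in untreated hepatocytes and 430 ± 24.5 in untreated biliary cells, so it was lower there on that scale as well, but it did not differ between reprogrammed cells, at 630 ± 36.7, and DDC hepatocytes, at 629 ± 71.6, beyond the spread (log2 difference 0.01, SE 0.11).

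Its partner Rps27 went the other way once its copy was added, an alternative chosen after seeing the data. With Rps27rt it stood at 1820 ± 112 scaled TPM in untreated hepatocytes, 1990 ± 59.5 in untreated biliary cells, 2080 ± 555 in DDC hepatocytes, 2120 ± 269 in reprogrammed cells, with 2000 ± 195 in DDC biliary cells. Against the family Rps27 was above it in untreated biliary cells by 0.59 (adjusted p = 0.000243, limma) and under DDC by 0.54 (adjusted p = 0.000514), and reprogrammed cells exceeded DDC hepatocytes by 0.37 (adjusted p = 0.0138). The paralogs Rpl3l, Rpl10l and Rpl39l did not pass the filter on low values. Rpl3 stood at 420, 426 and 598 scaled TPM in untreated hepatocytes while Rpl3l, its muscle paralog, was listed at 0 in all DDC libraries.

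Rps4l departed furthest upward. The annotation gives it as a transcribed processed pseudogene (chromosome 6, 148354656 to 148355598, GRCm38), so it is the 1 gene of the 77 that is not protein-coding there. It stood at 31.9, 34.9 and 42.5 scaled TPM in untreated hepatocytes and at 81.2, 107 and 84.1 in untreated biliary cells. In DDC hepatocytes it stood at 23.8, 36.0 and 50.9, in reprogrammed cells at 47.9, 55.0 and 73.2 and in DDC biliary cells at 52.0, 58.7 and 66.4. Untreated biliary libraries lay above all others, and reprogrammed and DDC hepatocyte libraries overlapped. The copy search did not compare Rps4l with Rps4x, also among the 77. Rps4x was far more abundant, at 809 ± 39.8 scaled TPM in untreated hepatocytes and 730 ± 30.7 in untreated biliary cells (SD, n = 3). How reads were shared between these 2 rows was not examined. Against the family Rps4l was higher by 1.65 ± 0.19 between untreated cell types (adjusted p = 8.95e-06, limma), by 1.29 under DDC (adjusted p = 7.03e-05) and by 0.99 in reprogrammed cells (adjusted p = 0.00165). DDC biliary cells were lower than untreated ones by -0.70 (adjusted p = 0.0195), a call lost without untreated biliary library 2 or DDC biliary library 1 or 2.

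Rps2, which lies at the mRNA entry channel of the small subunit, was lower against the family in biliary cells. It stood at 1479, 1459 and 2012 scaled TPM in untreated hepatocytes, 756, 735 and 874 in untreated biliary cells, 1573, 1898 and 2096 in DDC hepatocytes, 1110, 1426 and 1221 in reprogrammed cells, with 917, 1030 and 855 in DDC biliary cells. Hepatocyte libraries all lay above the others. The difference against the family was -0.66 ± 0.11 (adjusted p = 0.000148, limma) between untreated cell types and -0.39 under DDC (adjusted p = 0.00682), the second lost with only those groups in the fit (adjusted p = 0.0703). As deposited, the difference of Rps2 between untreated cell types was 0.22 and was not called. Rplp1, of the stalk, was lower by -0.40 (adjusted p = 0.0031) and Rpl13a, known for its part in interferon-induced translational control, by -0.32 (adjusted p = 0.00879). Rpl36 was lower by -0.42 (adjusted p = 0.0285), a call lost with copies added and without untreated biliary library 1 or 2 or untreated hepatocyte library 1 or 3.

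Genes higher than the family in untreated biliary cells included Rpl5, Rpl3, Rpl22 and Rps3. Rpl5, which carries 5S ribosomal RNA into the ribosome together with Rpl11, stood at 321, 312 and 341 scaled TPM in untreated hepatocytes and 356, 373 and 363 in untreated biliary cells. Every untreated biliary library lay above every untreated hepatocyte library. Against the family it was higher by 0.55 ± 0.095 (SE, adjusted p = 0.000233, limma). Rpl3, at the core of the peptidyl transferase centre, was higher by 0.46 (adjusted p = 0.00387), Rpl22 by 0.40 (adjusted p = 0.0028) and Rps3, which also takes part in DNA repair, by 0.38 (adjusted p = 0.00342). Under DDC these 4 were higher by 0.34, 0.35, 0.40 and 0.23, and all 4 of these calls were lost with only the DDC biliary and DDC hepatocyte libraries in the fit, where adjusted p-values ran from 0.061 in Rpl22 to 0.232 in Rps3. Rpl31 was higher by 0.45 under DDC (adjusted p = 0.00167), but not with its copy added (adjusted p = 0.137), and its call in reprogrammed cells was lost likewise (adjusted p = 0.512).

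**Figure D4:**
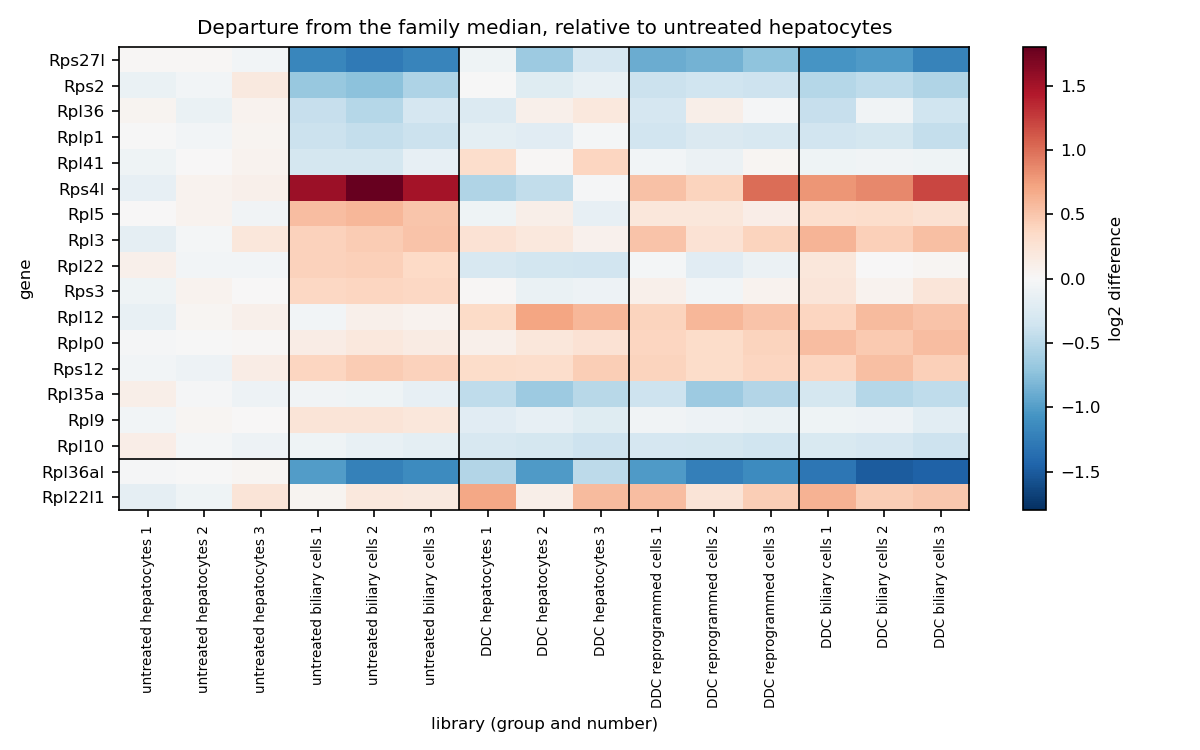
Log2 level of 18 genes against the median of the 77 in the same library, relative to the mean of untreated hepatocytes, in each of the 15 libraries, with 2 genes outside the name pattern (Rpl36al and Rpl22l1) as the last rows. Rps27l and Rps4l depart in opposite directions in biliary cells (-1.21 and 1.65 in the untreated comparison), and Rpl12 and Rpl35a do so under DDC in hepatocytes (0.55 and -0.54).

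DDC moved a few genes against the family, 3 of them in both cell types. Rpl12, part of the base of the stalk, stood at 751, 784 and 975 scaled TPM in untreated hepatocytes and 1018, 1827 and 1782 in DDC hepatocytes. It stood at 601, 667 and 683 in untreated biliary cells and 870, 1064 and 910 in DDC biliary cells. The treated libraries lay above the untreated ones in both cell types. Against the family Rpl12 rose by 0.55 ± 0.12 in hepatocytes (adjusted p = 0.00477, limma) and 0.46 ± 0.12 in biliary cells (adjusted p = 0.0145), the latter lost without untreated biliary library 1 or DDC biliary library 2.

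Rpl35a, a large-subunit gene mutated in some Diamond-Blackfan anaemia, moved down against the family instead. It stood at 1156, 988 and 1114 scaled TPM in untreated and 762, 924 and 1082 in DDC hepatocytes, which overlap, and at 775, 772 and 772 in untreated and 697, 658 and 606 in DDC biliary cells, which do not. Against the family it fell by 0.54 on the log2 scale in hepatocytes (adjusted p = 0.00341, limma). In biliary cells the fall was 0.33 (adjusted p = 0.0488, limma), a call lost in 12 of 20 alternatives. As deposited, Rpl35a hardly moved in hepatocytes, at 633 ± 28.1 TPM untreated and 643 ± 55.4 under DDC (SD, n = 3). Rpl22 fell against the family by 0.33 and 0.32 (adjusted p = 0.022 and 0.0286, limma), each lost without several single libraries. Its own level hardly moved in hepatocytes, at 97.9 ± 9.17 scaled TPM untreated and 96.7 ± 17.1 under DDC (SD, n = 3). Of the 5 genes called in hepatocytes and the 7 in biliary cells, these 3 were shared, or 60% and 42.9%. No overlap among all genes was counted to set beside these shares.

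Rplp0, the stalk protein that anchors Rplp1 and Rplp2, rose against the family in DDC biliary cells by 0.38 ± 0.09 (adjusted p = 0.00728, limma). It stood at 507, 530 and 539 scaled TPM in untreated and 730, 744 and 699 in DDC biliary cells, with no overlap. In hepatocytes Rps12 rose against the family by 0.37 (adjusted p = 0.0156, limma). Rpl10, which completes the peptidyl transferase centre late in assembly, fell against it by 0.32 (adjusted p = 0.0216). The level of Rpl10 itself was 1420 ± 125 scaled TPM in untreated and 1400 ± 242 in DDC hepatocytes (SD, n = 3). Rpl9 fell against the family by 0.34 (adjusted p = 0.0126) and Rpl21 by 0.28 (adjusted p = 0.0389) in biliary cells. Rpl10a was at 0.30 in hepatocytes and 0.31 in biliary cells (adjusted p = 0.134 and 0.157) and Rpl32 at 0.28 in biliary cells (adjusted p = 0.0784), none of them called. Rpl37a was at -0.18 in reprogrammed cells against DDC hepatocytes (adjusted p = 0.246). The calls of Rps12, Rpl10, Rpl9 and Rpl21 were each lost without some single library. In biliary cells the count of lower genes was 0 to 3 without any 1 of 9 libraries: 0 without untreated biliary library 2, 1 without DDC biliary library 2 or 3, 2 without untreated biliary library 1, and 3 without untreated biliary library 3, untreated hepatocyte library 1 or 3, DDC biliary library 1 or reprogrammed library 3. The count of higher genes was 1 without untreated biliary library 1 or DDC biliary library 2. In hepatocytes the counts were 5 higher and 6 lower without DDC hepatocyte library 1, and 1 and 1 without its library 3 or untreated hepatocyte library 1 or 2.

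Members known for other roles gave these values. Rps6, the S6 kinase substrate, was 492, 456 and 552 scaled TPM in untreated hepatocytes and 339, 368 and 369 in untreated biliary cells. Rpl11, the Mdm2-binding partner of Rpl5, was 1236, 1128 and 1420 against 828, 855 and 871 in these cells. Rps19, the gene most often mutated in Diamond-Blackfan anaemia, was 528, 500 and 633 against 459, 462 and 489. Hepatocyte libraries lay above biliary ones in all 3 genes on this scale, as most of the family did.

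Ribosomal protein genes outside the name pattern included 8 that were tested of 13 listed, 4 of them lower and 0 higher in untreated biliary cells on scaled values, and 0 lower and 7 higher as deposited. Rpl36al, the paralog of Rpl36a, stood at 1120, 1057 and 1293 scaled TPM in untreated hepatocytes and 428, 373 and 414 in untreated biliary cells, without overlap. Its difference from the family was -1.12 ± 0.14 between untreated cell types (adjusted p = 1.39e-05, limma), -0.75 under DDC (adjusted p = 0.000382) and -0.67 in DDC against untreated hepatocytes (adjusted p = 0.0035). Rpl22l1, the paralog of Rpl22, was higher against the family in DDC than in untreated hepatocytes by 0.46 (adjusted p = 0.0416), where Rpl22 itself fell against the family.

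Other lists of the translation machinery were described by their counts on scaled values, which carry the same dependence on scale. In untreated biliary cells against hepatocytes, the shares of all genes to set beside them were 30% lower and 36.9% higher on scaled values, 7.15% and 72.4% as deposited, and 21.5% and 37% against the family. Of 78 mitochondrial ribosomal protein genes, 75 were lower and 0 higher in untreated biliary cells, with a median of -0.92, and 37 were higher and 1 lower as deposited. Against the cytosolic family, 54 of the 78 were lower and 0 higher, with a median of -0.55. In DDC against untreated hepatocytes 49 were lower than the family and 0 higher, where 27.5% and 4.93% of all genes were. Their median was -0.51 and that of all genes -0.39. On scaled values 18 were lower and 1 higher in that comparison, with a median of -0.21, where 13.3% and 14.7% of all genes were. As deposited 2 were lower and 8 higher, with a median of 0.05, where 5.06% and 19.8% of all genes were. Mrpl12, of the large mitochondrial subunit, was lower than the family in biliary cells by -1.15 (adjusted p = 5.37e-06, limma), under DDC by -1.02 and in reprogrammed cells by -0.67. Of 40 translation initiation factor genes, 26 were lower and 1 higher in untreated biliary cells on scaled values, and 0 and 35 as deposited. Against the family 10 were lower and 3 higher, among them Eif5a at -0.95 (adjusted p = 6.64e-06), whose product aids peptide bond formation and termination.

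Eif6, which keeps new large subunits from joining small ones, rose under DDC in both cell types. It was 80.8 ± 14.3 scaled TPM in untreated and 253 ± 24.6 in DDC hepatocytes, and 66.0 ± 7.91 and 172 ± 33.5 in biliary cells. Against the family Eif6 rose by 1.34 (adjusted p = 0.00019, limma) and 1.28 (adjusted p = 0.000195). Of 61 ribosome assembly factor genes, 25 were lower and 12 higher in untreated biliary cells on scaled values, with a median of -0.04, 1 and 56 as deposited, and 6 and 17 against the family. Tcof1, a nucleolar factor for ribosomal RNA transcription, was 1.59 above the family there (adjusted p = 0.00049) and Rcl1, of the small-subunit processome, was -1.76 below it (adjusted p = 6.49e-07). Of 23 other TOP mRNAs and elongation factors, 10 were lower and 5 higher on scaled values and 23 were higher as deposited, and against the family 7 were higher and 0 lower, with Hnrnpa1 at 1.72 (adjusted p = 6.43e-07). Pabpc1, the poly(A)-binding protein gene, rose against the family by 0.56 in DDC biliary cells (adjusted p = 0.00969).

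Regulators of ribosome production were also counted. Of 26 genes of mTORC1, its targets and Myc, 14 were lower and 5 higher in untreated biliary cells on scaled values, 0 and 20 as deposited, and 7 and 7 against the family. Eif4ebp1, which codes for the mTORC1-controlled repressor 4E-BP1, was lower than the family by -1.09 both in untreated and in DDC biliary cells (adjusted p = 0.00014 and 0.000133, limma). Myc, a transcription factor that drives ribosome production, was above the family in untreated biliary cells by 2.07 (adjusted p = 1.24e-05) and in DDC against untreated hepatocytes by 2.06 (adjusted p = 0.000104). The DDC response of Myc differed between biliary cells and hepatocytes by -1.83 (adjusted p = 0.00512), with 0.23 in biliary cells (adjusted p = 0.564). In RNA polymerase I and its factors, 10 of 21 were higher and 3 lower in untreated biliary cells on scaled values, 20 and 0 as deposited, and 11 and 2 against the family. There Polr2l, a subunit shared by the 3 polymerases, was below the family by -1.23 (adjusted p = 4.1e-05). Under DDC the RNA polymerase I factor Taf1b rose against the family in hepatocytes by 0.62 (adjusted p = 0.0193), and Nhp2, of the box H/ACA snoRNP, rose in biliary cells by 0.62 (adjusted p = 0.00616). A list of 16 rows, snoRNA host genes with the ribosomal RNA row Rn45s among them, was counted in DDC against untreated hepatocytes. On scaled values 7 were higher and 0 lower, with a median of 0.46, where 14.7% and 13.3% of all genes were. Against the family 2 were higher and 3 lower, where 4.93% and 27.5% of all genes were. Of 19 genes of ribosome surveillance and p53, 9 were lower and 3 higher in untreated biliary cells on scaled values, 0 and 16 as deposited, and 3 and 4 against the family.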

How the data were processed

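RNA-seq of sorted mouse liver cells was deposited as gene TPM, computed by the authors with Salmon for mm10, per the submitters' processing notes, which give no version. The extraction kit is in the labels, but the filters and transcript annotation are not given in the sources used here. TPM keeps no counts, so depth is unknown and count tests were not used. Libraries were assigned by title.

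Genes with at least 1 TPM in at least 3 of 15 libraries were kept. Values were log2(scaled TPM + 1), each library divided by its median ratio over 11924 genes. All 5 groups entered 1 limma fit (version 3.58.1, R 4.3.3; trend on; 10 residual degrees of freedom), and p-values were adjusted over all 13905 genes. A second fit used log2(TPM + 1) minus the median of the 77 genes in each library. Copies were found with BLAST 2.17.0+ on GENCODE M21 (GRCm38), and promoters came from RefSeq (GRCm38.p6). Figures used matplotlib 3.10.9. Both fits were tested on simulated data with noise drawn independently for each gene and library. That setting lacks the shifts shared by many genes of a library, so it cannot speak to false calls in a family that moves together.

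The members, lists and tests were chosen with earlier results of these data known. The text names, in each comparison, up to 4 members highest and 4 lowest against the family with at least 10 scaled TPM, the 5 highest and 5 lowest by level, a fixed set, and some called genes of other lists. Not every gene the rule takes is printed, and other members are named as called genes in counts. 1 further gene is not reported here. Deviations of same-numbered libraries from their group means correlated across genes at 0.15 to 0.236 in the pair of untreated cell types. In DDC mice they did so at 0.136 to 0.449 for hepatocytes with reprogrammed cells, and at 0.208 to 0.456 for reprogrammed with biliary cells. Every such value exceeded 0.1, so numbers were taken as pairing these groups. DDC hepatocytes with biliary cells gave 0.0436 to 0.319 and were not taken as paired. The block fits the library number across all DDC groups, so it pairs these groups as well. The main fits used no block, so their p-values take no account of any pairing. Alternatives were other scalings, pseudocounts and filters, only the groups compared, the replicate block, a log2 difference of at least 1, and leaving out each library. Summing near-identical copies and dropping the rows Mir6236 and Rn45s were added after seeing the data.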

Additional observations from a re-analysis of the deposited data

How the results depend on the processing

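The direction of the family between cell types depended on the library scale, and the cause was not tested. Counts of the 77 genes called are given as higher and lower. In TPM as deposited they were 72 and 1 in biliary cells against hepatocytes when untreated, 64 and 1 under DDC, 69 and 0 in reprogrammed cells against DDC hepatocytes and 0 higher in reprogrammed against DDC biliary cells. DDC gave 67 higher in hepatocytes and 6 in biliary cells, and the difference between these responses gave 6 lower. With quantile normalization these counts were 69 and 2, 67 and 1, 61 and 0, 0 and 1, 64, 32 and 5 in the same order. Some genes outside the family reversed as well. As deposited Eef1a1 was at 0.61 in the untreated and Eef1b2 at 0.35 in the DDC comparison of biliary cells with hepatocytes, and Rpl36al at 0.04 in reprogrammed cells against DDC hepatocytes. With quantile normalization Eef1a1 was at 1.30 and Eef1b2 at 0.16.

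Other settings moved counts on scaled values, and the shares of all genes called under them were not examined. With no filter 4 genes were higher in DDC hepatocytes, and with a filter of 5 TPM 1 was higher in DDC biliary cells. With only the groups compared, which leaves fewer libraries to estimate the spread, the counts were 0 and 23 for DDC biliary cells against hepatocytes, 0 and 1 for reprogrammed cells against DDC hepatocytes, 0 higher for reprogrammed against DDC biliary cells, 0 higher for DDC in hepatocytes and 2 and 1 for DDC in biliary cells. The replicate block within treatment gave 17 lower in reprogrammed cells against DDC hepatocytes, 3 higher against DDC biliary cells, 14 higher for DDC in hepatocytes, 2 and 1 for DDC in biliary cells and 1 lower for the difference of responses. The block is nested within treatment and pairs no DDC library with an untreated one, so for DDC against untreated cells it removes spread between libraries that those comparisons should be judged against, and its counts there are no stronger evidence. A log2 difference of at least 1 left 2 lower in untreated biliary cells, 0 and 1 under DDC, 0 and 0 in reprogrammed cells against DDC hepatocytes, 0 higher against DDC biliary cells and 0 for DDC in hepatocytes.

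Against the family median, a filter of 5 TPM gave 10 lower in DDC biliary cells against hepatocytes, 2 lower in reprogrammed cells and 4 higher for DDC in hepatocytes. With only the groups compared the counts were 3 and 1, 1 and 0, and 1 higher in these comparisons. The replicate block gave 9 lower, 4 and 3, and 5 and 6 in them, and 4 and 9 for DDC in biliary cells. The 9 come from groups not taken as paired, and the limit of the block for DDC against untreated cells holds here too. A pseudocount of 5 gave 8 lower for DDC in hepatocytes and 3 lower for DDC in biliary cells. With copies summed, chosen after seeing the data, the counts were 25 and 5 in untreated biliary cells, 11 lower under DDC and 7 and 1 for DDC in hepatocytes. The share of the family without Mir6236 and Rn45s was 7.82% in reprogrammed and 8.34% in DDC biliary cells.

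Leaving out 1 library at a time gave, on scaled values, 1 to 2 higher and 19 to 44 lower in untreated biliary cells, 0 to 1 and 43 to 71 under DDC, 0 to 1 and 1 to 58 in reprogrammed cells against DDC hepatocytes and 0 to 4 higher against DDC biliary cells. DDC gave 0 to 43 higher in hepatocytes and 0 to 2 higher and 0 to 1 lower in biliary cells, and the difference of responses 0 to 5 lower. Against the family median the ranges were 9 to 15 and 6 to 9, 9 to 13 and 3 to 8, 1 to 4 and 1 to 2, and 0 to 1 lower for the 4 comparisons between cell types, 1 to 5 and 1 to 6 for DDC in hepatocytes and 1 to 3 and 0 to 5 for DDC in biliary cells. Depth limits could not be given from TPM.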
